A study of Mus musculus with 15 samples.

Results

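The step between postnatal day 2 (P2) and postnatal day 3 (P3) was examined in kidney cells sorted for the Crym-EGFP reporter, by comparing the 3 pools of P3 with the 3 pools of P2. These 6 of the 15 arrays of the series were chosen by the day in their titles, and no measured value was used to choose them. All animals were CD-1 mice carrying Tg(Crym-EGFP)82Gsat, an insertion of a bacterial artificial chromosome in which regulatory sequence of Crym drives enhanced green fluorescent protein. The labels give no other allele and no treatment. Litters were raised by CD-1 foster mothers, and each sample was a pool of about 4 kidneys of P3 pups or of P2 pups, dissociated with trypsin and sorted by fluorescence. Cells of both days are labelled cap mesenchyme, as are those of P1 and P0, while those of P4 are labelled renal vesicle. The sex of the pups is labelled unknown. Because a reporter that follows Crym was used to collect the cells, the level of Crym itself and the makeup of the sorted fraction can move together, and their parts cannot be told apart here. In pooled cells, fewer cells of a type and less RNA per cell cannot be told apart either. Nothing in the labels says that pools of 1 day came from separate litters, so p-values measure the spread between these pools.

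Cap mesenchyme is the population of nephron progenitors that surrounds the tips of the branching ureteric bud. It is held in a self-renewing state by the transcription factor Six2, and its least committed cells also express Cited1. A Wnt9b signal from the bud and then Wnt4 from the cells themselves turn part of the cap into pretubular aggregates and renal vesicles, the first epithelial stages of the nephron, which switch on Lhx1, Pax8 and Jag1. In the mouse this population is used up within days after birth, and no further nephrons are made. The comparison of P3 with P2 asks which genes changed during 1 day of that period.

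Values are log2 expression as the authors deposited them, so that a difference of 1 stands for a fold of 2. Of 19938 genes with a probe set of their own, 11885 were tested, those for which 3 or more arrays exceeded 6.863, the overall median. The first replicate of every day stood apart from the later ones. Its interquartile ranges lay between 2.14 and 2.27, against 2.52 to 2.77 for replicates 2 and 3, and 5048 genes differed between these sets of arrays. The array set was therefore a block in the test (limma with Benjamini-Hochberg adjustment, all 15 arrays). P3 replicate 3 also stood apart. It lay alone on the third principal component at -33.67, and its residuals had an SD of 0.249 against 0.1 to 0.175 in the other arrays. The main counts are also given without it, and named genes that lost their call without it are stated. Levels of Y-linked genes differed widely between pools. Uty had 6.36, 7.13 and 6.83 in P3 pools, against 6.49, 6.79 and 4.74 in P2 pools, where Xist was highest in the same P2 replicate 3 at 11.25. The part of the sex of the pups in the results was not tested.

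At P3 the sorted cells had lower levels of 11 of 26 tested nephron progenitor genes, Six2 and Cited1 among them, and higher levels of 12 of 21 genes that mark pretubular aggregates and renal vesicles, Lhx1 and Pax8 among them, while the others did not pass. Both sets of genes were chosen with earlier results of these data known, so these counts only describe them. In all, 146 genes (1.23% of those tested) differed between P3 and P2 at an adjusted p under 0.05. Of these, 94 were higher in P3 (0.791% of genes tested) and 52 were lower (0.438%). Folds ran from 1.34 to 4.34, and 32 of the rises and 15 of the falls were 2-fold or more. Each of the 146 genes moved the same way in all 3 pairs of pools that share a replicate number. The genes were chosen by a test on these same values, so this describes them and is not a further test. The values of P3 and P2 did not overlap for 122 of the 146, against 1054 of all genes tested (8.87%). The median difference over all genes was -0.01. Without P3 replicate 3, 139 genes passed, 102 higher and 37 lower, and 103 of the 146 were among them. Of the fits that left out 1 of these pools, that without P2 replicate 3 gave the fewest genes, 57. With each of the 6 pools left out in turn, 49 of the 146 passed every time and 97 lost their call at least once, and those among the genes named are given with the pools concerned. Without the array set as a block 17 genes passed.

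**Figure D1:**
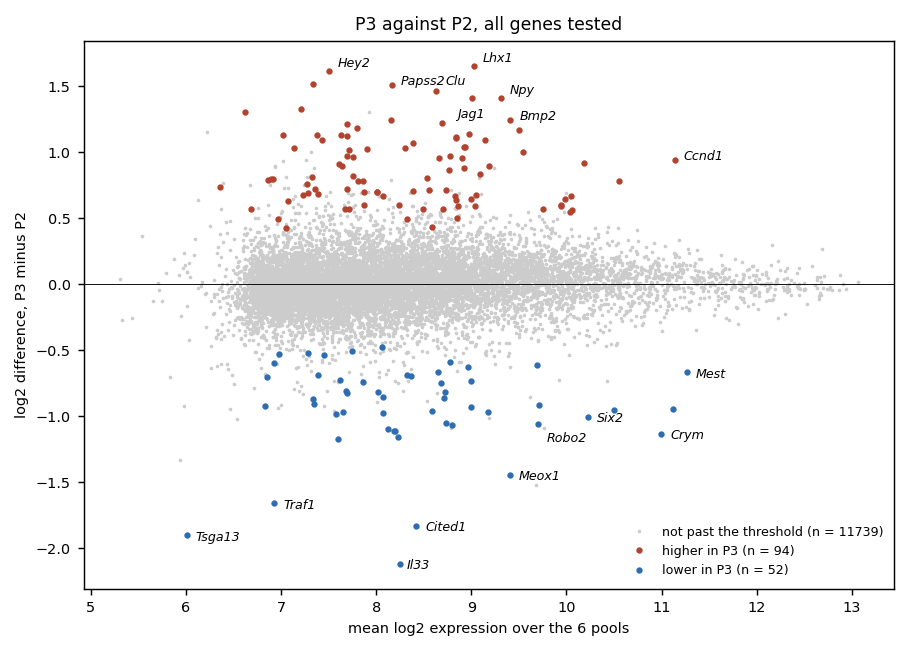
Log2 difference of P3 minus P2 (vertical axis) against mean log2 expression over the 6 pools (horizontal axis) for the 11885 genes tested. Coloured points are the 94 genes higher and the 52 genes lower in P3 at an adjusted p under 0.05, and the largest falls, among them Il33 and Cited1, exceed the largest rise, Lhx1, in size.

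The progenitor genes were described first. As all gene lists were chosen with earlier results of these data known, their counts are a description and not a test. A list of 30 cap mesenchyme genes had 29 members on the array and 26 in the test. Of these 26, 11 fell, against 0.438% of all genes, 0 rose and 15 did not pass, and the median difference was -0.48. Six2, the factor that keeps progenitors from differentiating, had 9.93, 9.76 and 9.49 in P3 pools, against 10.44, 10.92 and 10.83 in P2 pools. All P3 values lay below all P2 values, and the difference was -1.0 ± 0.15 (SE, adjusted p = 0.00306). Cited1, a transcriptional coactivator of the least committed progenitors, fell more. It had 7.83, 7.54 and 7.14 in P3 pools and 8.36, 9.79 and 9.85 in P2 pools, a difference of -1.83 ± 0.30 (adjusted p = 0.00646). The groups did not overlap, and the first pair showed the smallest change, at -0.53 against -2.24 and -2.71 in the others.

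Meox1 and Meox2, homeobox genes expressed in the cap, fell together. Meox1 had 9.0, 8.73 and 8.33 in P3 pools, against 9.67, 10.4 and 10.3 in P2 pools (-1.44 ± 0.21, adjusted p = 0.00284). Meox2 had 7.49, 7.69 and 7.55 in P3 pools, against 8.26, 8.82 and 8.95 in P2 pools (-1.10 ± 0.15, adjusted p = 0.00138). For neither gene did the days overlap. Crym, a thyroid hormone binding protein whose regulatory sequence drives the reporter, fell in the same way. It had 10.5, 10.5 and 10.2 in P3 pools, against 11.2, 11.8 and 11.7 in P2 pools (-1.13 ± 0.16, adjusted p = 0.00205), so P3 was lower in every pool although these cells were sorted with the Crym reporter.

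Signalling genes of the cap fell as well. Robo2, a receptor for Slit ligands whose loss in mice misplaces Gdnf, had 9.51, 8.97 and 9.03 in P3 pools and 10.2, 10.2 and 10.3 in P2 pools (-1.06 ± 0.13, adjusted p = 0.000894). Gdnf, the growth factor by which the cap draws out ureteric bud branches, had 8.10, 7.99 and 7.85 in P3 pools and 8.52, 9.03 and 8.46 in P2 pools (-0.69 ± 0.14, adjusted p = 0.0224). Traf1, an adaptor of tumour necrosis factor receptors, had 5.90, 6.05 and 6.35 in P3 pools, against 7.11, 8.16 and 8.0 in P2 pools (-1.66 ± 0.30, adjusted p = 0.0114). P3 pools lay below P2 pools for these genes in each case. Elavl4, an RNA-binding protein, Phf19, a Polycomb protein, and Spock2, a secreted proteoglycan, completed the 11, with differences of -1.17, -0.91 and -0.66 (adjusted p = 0.0248, 0.00205 and 0.0451). The calls of Gdnf, Traf1, Elavl4 and Spock2 were lost without P2 replicate 2 and without P3 replicate 2, those of the last 3 also without P2 replicate 3, those of Gdnf and Spock2 without P3 replicate 3 and that of Elavl4 without P2 replicate 1 (adjusted p up to 0.0941, 0.064, 0.125 and 0.251).

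Several well known progenitor genes did not pass. Eya1, the partner of Six2 and its relatives in the cap, had 10.1, 10.4 and 10.4 in P3 pools and 10.4, 10.9 and 11 in P2 pools, with a difference of -0.46 ± 0.20 (adjusted p = 0.444). Wt1 and Sall1, transcription factors of progenitors that are also expressed in later nephron cells, had differences of -0.01 and -0.12 (adjusted p = 0.986 and 0.754). Pax2, which is expressed in the cap and in its epithelial derivatives, had a difference of 0.31 (adjusted p = 0.355). Osr1, a marker of early nephrogenic mesenchyme, had -0.37 (adjusted p = 0.655). Without P3 replicate 3, 9 members of the list fell and the median was -0.43. The count was 7 without P3 replicate 2 or P2 replicate 2, and 3 without the array set as a block.

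**Figure D2:**
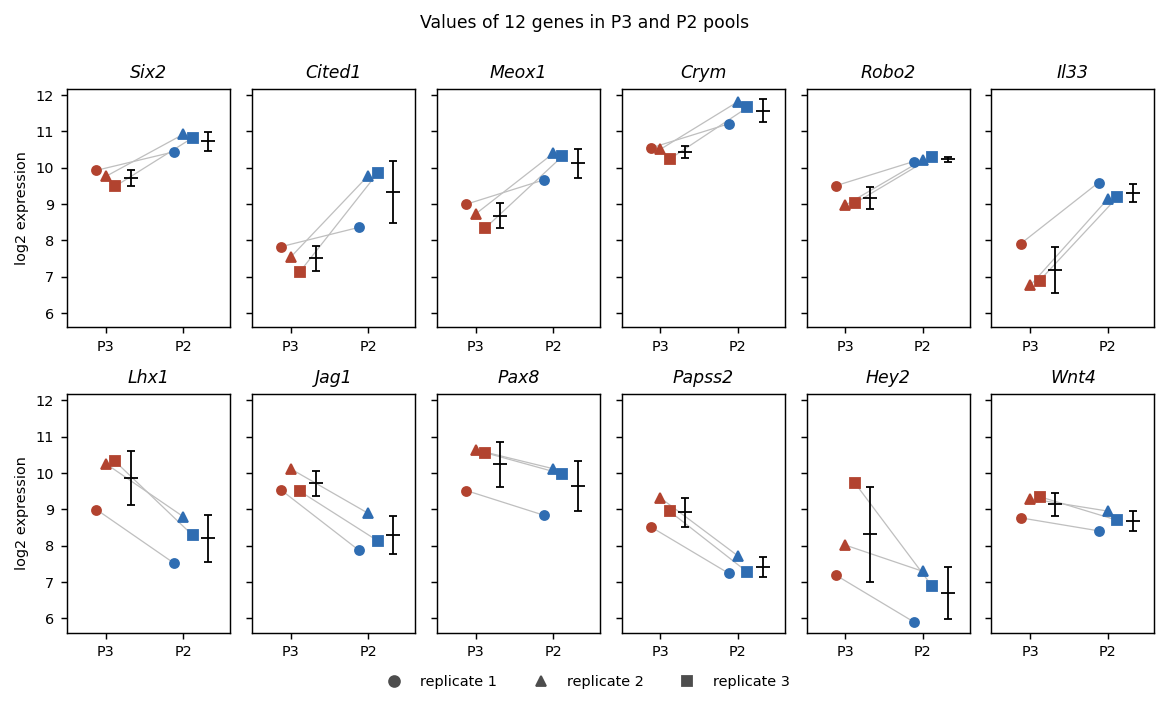
Log2 expression (vertical axis) of 12 genes in each P3 pool (red) and P2 pool (blue), with symbols for the replicate number, grey lines joining pools of the same number, and black bars for the mean and SD of 3 pools. The 6 genes of the upper row are lower in every P3 pool than in any P2 pool, while in the lower row Lhx1, Jag1 and Papss2 are higher in every P3 pool, and Pax8, Hey2 and Wnt4 overlap between the days.

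Genes of the pretubular aggregate and renal vesicle moved the other way. Of 24 listed genes, 22 were on the array and 21 were tested. Of these, 12 rose, against 0.791% of all genes, 0 fell and 9 did not pass, with a median difference of 0.78. Lhx1, a LIM homeobox gene needed for the renal vesicle to be patterned, had the smallest adjusted p of any gene. Its values were 8.99, 10.3 and 10.3 in P3 pools and 7.52, 8.80 and 8.29 in P2 pools (1.66 ± 0.14, adjusted p = 8.01e-05). The first pool of each day was the lowest of its day, and the 3 paired differences were 1.48, 1.46 and 2.04.

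Other transcription factors of the list rose with it. Pax8, a paired box factor of early nephron epithelium, had 9.52, 10.6 and 10.6 in P3 pools, against 8.84, 10.1 and 9.97 in P2 pools (0.60 ± 0.11, adjusted p = 0.0122). Its values overlapped between days because the first pools were low on both days, while every pair rose. Emx2, a homeobox gene required for the developing urogenital tract, had 6.65, 7.72 and 7.47 in P3 pools, against 5.98, 6.01 and 5.91 in P2 pools (1.31 ± 0.20, adjusted p = 0.00389), and all P2 values and the first P3 value lay below the median of all values. Osr2, an odd-skipped factor, had 7.19, 8.52 and 8.12 in P3 pools and 6.56, 7.05 and 6.84 in P2 pools (1.13 ± 0.22, adjusted p = 0.0189). Wnt4, which drives the mesenchyme to epithelium transition, had 8.77, 9.29 and 9.35 in P3 pools and 8.41, 8.95 and 8.70 in P2 pools. Its difference of 0.45 ± 0.16 did not pass (adjusted p = 0.282), and a second probe set of the gene had a difference of 0.64. The calls of Pax8 and Osr2 were lost without P3 replicate 2 and without P2 replicate 3, that of Pax8 also without P2 replicate 1 and that of Osr2 without P2 replicate 2 (adjusted p up to 0.0955 and 0.142).

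Secreted and metabolic members were among the larger rises. Bmp2, a ligand of the bone morphogenetic protein family, had 10.1, 10.0 and 10.0 in P3 pools, against 8.67, 8.97 and 8.72 in P2 pools (1.25 ± 0.21, adjusted p = 0.00688). Papss2, which makes the sulfate donor used for proteoglycans, had 8.51, 9.32 and 8.94 in P3 pools, against 7.24, 7.72 and 7.28 in P2 pools (1.51 ± 0.18, adjusted p = 0.000621). Npy, the precursor of neuropeptide Y, had 9.42, 10.5 and 10.1 in P3 pools and 8.5, 8.89 and 8.43 in P2 pools (1.41 ± 0.21, adjusted p = 0.0031). The days did not overlap for any of these genes. Sfrp2, a secreted Wnt antagonist, Ccnd1, the cyclin D1 gene, Cdh6, an early nephron cadherin, and Lef1, a nuclear effector of Wnt signalling, rose by 1.17, 0.94, 0.90 and 0.78 (adjusted p = 0.000327, 0.0011, 0.0122 and 0.0173). Among members that did not pass, Fgf8 and Dll1, ligands made in early aggregates, had differences of -0.05 and 0.17 (adjusted p = 0.938 and 0.786). Without P3 replicate 3 the list still had 12 rises, with a median of 0.84. The count was 8 without P3 replicate 2 or P2 replicate 3, and 2 without the array set as a block. Bmp2 lost its call without P2 replicate 1 (adjusted p = 0.0503), and Cdh6 and Lef1 lost theirs without P3 replicate 2 or P2 replicate 3, Lef1 also without P2 replicate 2 (adjusted p up to 0.0945 and 0.116).

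Genes of later nephron segments were described next. The podocyte list had 14 tested members, of which 3 rose, against 0.791% of all genes, and 0 fell, with a median of 0.08. Without P3 replicate 3, 4 rose. Cldn5, a tight junction claudin, had 8.24, 9.17 and 9.05 in P3 pools and 7.5, 8.06 and 7.80 in P2 pools (1.03 ± 0.20, adjusted p = 0.0142), and Dach1 and Efnb2 rose by 0.64 and 0.71 (adjusted p = 0.00905 and 0.00593). Among 9 tested genes of the loop of Henle and distal tubule 1 rose, against 0.791% of all genes. It was the zinc finger gene Mecom (1.02, adjusted p = 0.0154), whose second probe set was dim and had a difference of 0.12. With the mean of the probe sets its difference was 0.57 and did not pass. Without P2 replicate 3 the calls of Cldn5, Dach1 and Mecom were lost and 1 podocyte gene passed. Those of Cldn5 and Mecom were lost without P3 replicate 2, those of Dach1 and Mecom without P2 replicate 1, and that of Cldn5 without P2 replicate 2 (adjusted p up to 0.111, 0.0711 and 0.113 for Cldn5, Dach1 and Mecom). None of 10 proximal tubule genes passed, with a median of -0.11, and Lrp2, the endocytic receptor megalin, had 7.02, 6.8 and 6.58 in P3 pools, against 7.15, 7.10 and 7.05 in P2 pools. None of 11 ureteric bud and collecting duct genes passed either, with a median of 0.04, while 1 rose without P3 replicate 3.

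**Figure D3:**
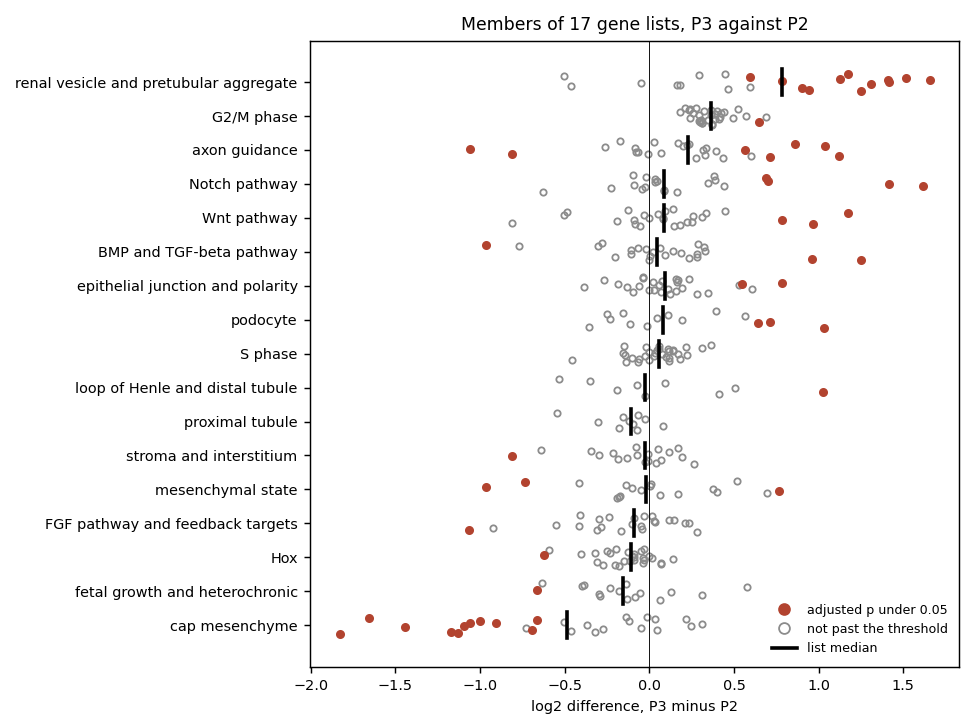
Log2 difference of P3 minus P2 (horizontal axis) for the tested members of 17 gene lists (vertical axis), with filled points for an adjusted p under 0.05, open points for the rest and a black bar for the median of the list. The cap mesenchyme list (median -0.48) and the renal vesicle list (median 0.78) lie on opposite sides of 0, and every member of the G2/M list is above 0.

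Markers of other cell types that could enter the sorted fraction were followed alongside. Of 19 stromal genes tested, 1 fell, against 0.438% of all genes, and 0 rose, with a median of -0.03. The stromal factor Foxd1 had 8.38, 8.12 and 8.46 in P3 pools, against 8.85, 9.16 and 9.40 in P2 pools (-0.81 ± 0.15, adjusted p = 0.0125), a call lost without P3 replicate 2 or P2 replicate 3 (adjusted p up to 0.106). Endothelial markers were mostly below the median of all values. Of 15 measured, 3 reached the test, none of them passed, and Pecam1 and Cdh5 did not exceed 6.20 in any of the 6 pools. Ramp2, a receptor activity modifying protein that endothelial cells also express, had 8.52, 8.68 and 7.54 in P3 pools and 8.90, 9.59 and 9.51 in P2 pools, and its difference of -1.09 did not pass (adjusted p = 0.0644). Ramp2 did pass after quantile normalization or median centring, with array weights and without P3 replicate 1 (limma, smallest adjusted p = 0.00117). Under the other alternatives it did not. The erythroid, macrophage and neural lists had 4, 3 and 2 tested members and none passed, with medians of 0.13, -0.14 and 0.07. The summed level of each list, on the log2 scale, was 10.45 to 10.68 in P3 pools against 10.72 to 10.99 in P2 pools for endothelial genes, 10.13 to 10.40 in P3 pools against 10.19 to 10.36 in P2 pools for macrophage genes, and 12.49 to 13.00 in P3 pools against 12.81 to 12.99 in P2 pools for stromal genes, so the ranges overlapped for the last 2 lists and not for the endothelial list, to which Ramp2 belongs. The part of these cells in the results was not tested.

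Signalling pathways that act in nephron induction were then described by role. In the Notch pathway, where a membrane ligand on 1 cell activates a receptor on the next, 4 of 21 tested genes rose, against 0.791% of all genes, 0 fell, and the median was 0.08. The ligand Jag1 had 9.53, 10.1 and 9.50 in P3 pools and 7.87, 8.89 and 8.14 in P2 pools (1.41 ± 0.20, adjusted p = 0.00213), without overlap. The receptor Notch1 had 7.92, 8.62 and 8.54 in P3 pools and 7.16, 7.98 and 7.83 in P2 pools (0.70 ± 0.15, adjusted p = 0.0345), and this call was lost when any 1 of the P3 or P2 pools was left out (adjusted p up to 0.192). The target Hey2, a transcriptional repressor, had 7.19, 8.02 and 9.73 in P3 pools and 5.91, 7.29 and 6.88 in P2 pools (1.62 ± 0.34, adjusted p = 0.03). Its values overlapped between days and P3 replicate 3 was the highest, and without that pool its difference was 1.04 (adjusted p = 0.0155). The feedback inhibitor Nrarp rose by 0.69 (adjusted p = 0.0486). The call of Hey2 was lost without any 1 of the P2 pools (adjusted p up to 0.162) and that of Nrarp without any 1 of the 6 pools except P3 replicate 1 (up to 0.216), so that 1 Notch gene passed when a P2 pool was left out and 2 without P3 replicate 2 or 3.

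Among 26 tested genes of the Wnt pathway, 3 rose, against 0.791% of all genes, and 0 fell, with a median of 0.09. They were Lef1 and the secreted modulators Sfrp2 and Dkk2, and Lef1 and Sfrp2 were also counted in the renal vesicle list. Dkk2 had 8.14, 8.29 and 8.29 in P3 pools, against 7.45, 7.20 and 7.16 in P2 pools (0.97 ± 0.11, adjusted p = 0.000621), and Sfrp2 had 9.57, 10.6 and 10.1 in P3 pools, against 8.49, 9.33 and 8.93 in P2 pools. Neither gene overlapped between days. In the BMP and TGF-beta pathway, 2 of 24 genes rose, against 0.791% of all genes, the ligands Bmp2 and Bmp4. The TGF-beta induced matrix protein Tgfbi was the 1 gene that fell, against 0.438% of all genes, and the median was 0.05. Bmp4 had 8.84, 9.58 and 9.73 in P3 pools and 8.18, 8.68 and 8.41 in P2 pools (0.96 ± 0.15, adjusted p = 0.00517), and Tgfbi had 8.76, 8.96 and 8.36 in P3 pools and 9.23, 9.98 and 9.77 in P2 pools (-0.97 ± 0.17, adjusted p = 0.00847). Lef1 and Bmp2 lost their calls as given above, and Tgfbi lost its call without P2 replicate 2 or 3 (adjusted p up to 0.0571).

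FGF signals keep progenitors alive and proliferating. Of 23 tested genes of that pathway and its feedback targets, 1 fell, against 0.438% of all genes, and 0 rose, with a median of -0.09. The gene that fell was Etv1, an ETS factor induced by FGF, with 8.91, 8.12 and 7.77 in P3 pools, against 9.41, 9.34 and 9.24 in P2 pools (-1.06 ± 0.23, adjusted p = 0.0346). A second probe set of Etv1 had a difference of -0.86, and the call was lost when any 1 of the 6 pools except P3 replicate 1 was left out (adjusted p up to 0.16, and 0.104 without P3 replicate 3). None of 12 genes of the retinoic acid pathway passed in the test of all arrays. Crabp2, which carries retinoic acid into the nucleus, had 9.87, 9.44 and 7.46 in P3 pools and 10.5, 10.3 and 10.6 in P2 pools, a difference of -1.52 with an adjusted p of 0.0678, and P3 replicate 3 was far below the other pools. The 3 paired differences were -0.61, -0.86 and -3.10. Without P3 replicate 3 Crabp2 fell by 0.82 on the log2 scale and passed (adjusted p = 0.00456), and it also passed without P3 replicate 1 or 2 (0.0152 and 0.0301), after quantile normalization or median centring (0.047 and 0.0411) and with array weights (0.000993). It did not pass under the other alternatives, among them the replicate block and each P2 pool left out.

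Axon guidance genes, several of which shape the early nephron and its vessels, had the most calls after the lists above. Of 26 tested, 5 rose, against 0.791% of all genes, and 2 fell, against 0.438%, with a median of 0.23. The ligand Slit2 had 8.94, 9.38 and 9.27 in P3 pools and 8.30, 8.38 and 8.32 in P2 pools (0.86 ± 0.12, adjusted p = 0.00233), and its receptor Robo1 had 9.92, 10.6 and 10.5 in P3 pools and 9.32, 10.1 and 9.92 in P2 pools (0.56 ± 0.10, adjusted p = 0.00689). The other Slit receptor of the list that passed was Robo2, given above, which fell. Epha4, an ephrin receptor, had 9.38, 9.60 and 9.21 in P3 pools and 8.13, 8.5 and 8.21 in P2 pools (1.12 ± 0.17, adjusted p = 0.00336). Sema5a, a semaphorin, and Efnb2, an ephrin ligand, rose by 1.04 and 0.71 (adjusted p = 0.0031 and 0.00593), and Nrp2, a semaphorin receptor, had 7.47, 7.30 and 7.07 in P3 pools, against 7.92, 8.31 and 8.05 in P2 pools (-0.81 ± 0.13, adjusted p = 0.00593). The call of Robo1 was lost without P2 replicate 1 or 3 (adjusted p up to 0.0589).

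Growth, adhesion and chromatin lists each held 1 to 3 calls, while of all genes 0.791% rose and 0.438% fell. Among epithelial junction and polarity genes, 2 of 28 rose, the laminin chains Lamc1 (0.79 ± 0.13, adjusted p = 0.00689) and Lamb1 (0.54 ± 0.12, adjusted p = 0.039), and 0 fell. Lamc1 had 10.4, 11.2 and 11.2 in P3 pools and 9.73, 10.5 and 10.3 in P2 pools. Among 18 mesenchymal genes, the homeobox gene Prrx1 rose by 0.76 (adjusted p = 0.00138), and Zeb1, a repressor of epithelial genes, had 8.41, 8.81 and 8.67 in P3 pools, against 8.88, 9.70 and 9.51 in P2 pools (-0.73 ± 0.13, adjusted p = 0.00787), beside Tgfbi. In the fetal growth list 1 of 16 passed, the imprinted gene Mest, with 10.7, 11.2 and 10.9 in P3 pools and 11.4, 11.6 and 11.8 in P2 pools (-0.66 ± 0.10, adjusted p = 0.00321). Of 25 genes of IGF and insulin signalling, the binding proteins Igfbp4 and Igfbp6 changed in opposite directions, by 0.60 and -0.51 (adjusted p = 0.0104 and 0.0443), and the call of Igfbp6 was lost with the replicate block, which pairs pools by number (adjusted p = 0.0527) and without a filter. Bcl2, which protects cells from apoptosis, had 9.64, 9.41 and 9.11 in P3 pools and 9.93, 10.0 and 10.1 in P2 pools (-0.61 ± 0.12, adjusted p = 0.0224), and was the 1 gene of 15 in its list that passed. Of 28 Hox genes, Hoxc4 fell (-0.62, adjusted p = 0.0486), while 2 fell with the replicate block and 0 without P3 replicate 3. In the fetal growth list 1 further gene rose without that pool. Leaving out any 1 of the 6 pools ended the calls of Lamb1 and Hoxc4 (adjusted p up to 0.216 for each), and any but P3 replicate 1 those of Igfbp6 and Bcl2 (up to 0.241 and 0.147). Those of Lamc1 and Igfbp4 were lost without P2 replicate 3 (0.0589 and 0.0945) and that of Zeb1 without P2 replicate 2 (0.0555). Among 33 genes of the BAF and Polycomb complexes Phf19 alone passed, among 17 genes of D cyclins, Myc and CDK inhibitors Ccnd1 alone, and among 9 genes of hormone signalling Crym alone, with medians of 0.03, 0.05 and -0.06.

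In the lists of interstitial matrix, immediate-early, heat shock, glycolysis, mitochondrial respiration, fatty acid oxidation, interferon and ribosomal protein genes no member passed, and their medians lay between -0.13 and 0.06. The 23 ribosomal protein genes had a median of -0.04.

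Outside the lists, the largest fall of any gene was that of Il33, an alarmin cytokine held in the nucleus. It had 7.92, 6.76 and 6.9 in P3 pools, against 9.59, 9.15 and 9.18 in P2 pools (-2.12 ± 0.20, adjusted p = 0.000143), and the days were separated by more than 1 log2 unit. Tsga13, a testis-specific gene by name, had 5.35, 5.23 and 4.59 in P3 pools and 6.83, 6.84 and 7.20 in P2 pools (-1.90 ± 0.25, adjusted p = 0.00111), and only P2 replicate 3 was above the median of all values. Tpcn1, an ion channel of endosomes and lysosomes, had 7.46, 7.84 and 7.61 in P3 pools and 8.33, 9.0 and 8.91 in P2 pools (-1.11 ± 0.11, adjusted p = 0.000256). Hpgd, which breaks down prostaglandins, and Mgat4a, a glycosyltransferase, fell by 1.11 and 1.16 on the log2 scale (adjusted p = 0.0216 and 0.0175), and both calls were lost without any 1 of the P2 pools, that of Hpgd also without P3 replicate 2 and that of Mgat4a without P3 replicate 3 (adjusted p up to 0.142 and 0.124).

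Among rises outside the lists, Clu, the extracellular chaperone clusterin, had 8.34, 9.72 and 10.0 in P3 pools, against 7.30, 8.39 and 8.02 in P2 pools (1.47 ± 0.17, adjusted p = 0.000581). Ap1s2, a subunit of a clathrin adaptor, had 7.78, 7.93 and 8.57 in P3 pools and 6.19, 6.93 and 6.62 in P2 pools (1.51 ± 0.25, adjusted p = 0.00626). Egfl6, a secreted matrix protein, had 7.51, 7.61 and 8.51 in P3 pools and 6.17, 6.72 and 6.74 in P2 pools (1.33 ± 0.22, adjusted p = 0.00688). Ap1s2 and Egfl6 did not overlap between days, while Clu did through the low first pool of P3. Ptpn13, a tyrosine phosphatase, and Enpep, the aminopeptidase A of nephron epithelium, rose by 1.22 and 1.24 (adjusted p = 0.000546 and 0.0248), and the call of Enpep was lost without any 1 of the 6 pools except P3 replicate 1 (adjusted p up to 0.151). That of Egfl6 was lost without P2 replicate 1 (adjusted p = 0.0545).

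Genes of the G2 and M phases of the cell cycle had small differences in 1 direction. All 33 tested members were higher in P3 on average, with a median of 0.36 and a range of 0.18 to 0.69. Of them 1 passed, against 0.791% of all genes, and 24 were at an unadjusted p under 0.05, as were 695 of the 11885 genes in that direction. The gene that passed was Bub1b, a kinase of the spindle checkpoint, with 10.1, 10.3 and 10.5 in P3 pools, against 9.28, 9.95 and 9.76 in P2 pools (0.65 ± 0.12, adjusted p = 0.0126), a call lost without P2 replicate 1 or 3 (adjusted p up to 0.107). Kif14, a mitotic kinesin, had 9.15, 9.36 and 8.86 in P3 pools and 8.53, 8.67 and 8.46 in P2 pools, with an adjusted p of 0.0645. It passed with the replicate block (adjusted p = 0.00834), and without P3 replicate 3 (0.0124), and in each of these fits 2 genes of the list rose. It also passed after quantile normalization or median centring, with the filter at log2 8 and with array weights, and under no other alternative. A second probe set of Kif14 was dim, with a mean of 4.46, and had a difference of 0.08. Mki67, the gene of the Ki-67 proliferation antigen, had a difference of 0.26 (adjusted p = 0.522). The median over the list was 0.60, 0.32 and 0.17 in the pairs of replicates 1, 2 and 3, against 0.07, -0.01 and -0.05 over all genes, and 33, 33 and 26 members were above 0. The pair of first replicates, from the separate array set, gave the largest difference. Of 31 S phase genes tested, 0 passed, 19 were above 0, and the median was 0.06. In the pairs of replicates 1, 2 and 3, 25, 21 and 8 of them were above 0, with medians of 0.18, 0.06 and -0.14, and without P3 replicate 3, 26 were above 0, with a median of 0.11. Other lists leaned to 1 side as well. Members below 0 were 24 of 28 in the Hox list, 19 of 23 in the ribosomal protein list, 18 of 22 in the glycolysis list and 5 of 5 in the interferon list. Differences between lists were not tested.

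**Figure D4:**
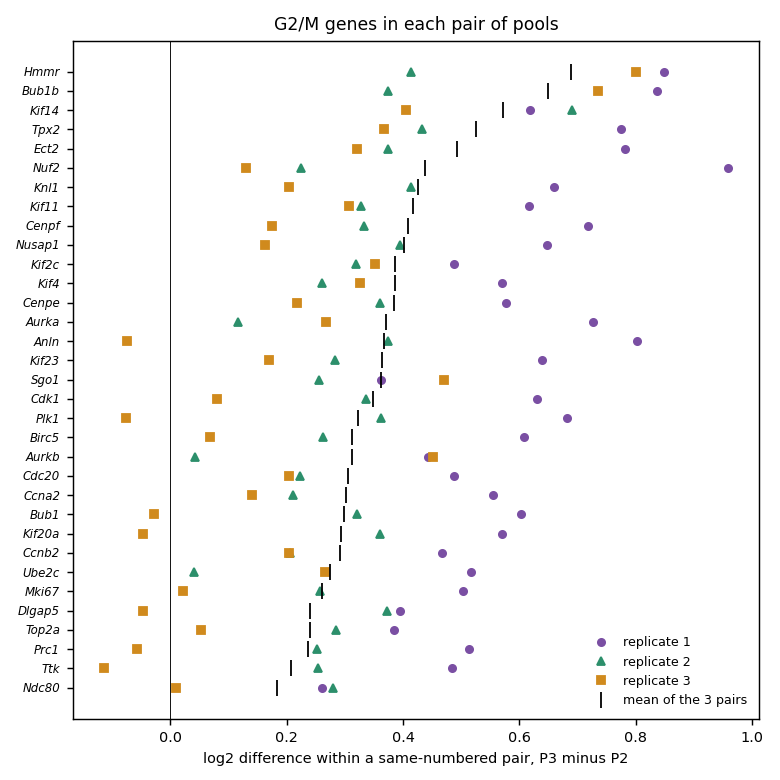
Log2 difference of P3 minus P2 (horizontal axis) within each pair of pools of the same replicate number for the 33 tested G2/M genes (vertical axis), with a black tick for the mean of the 3 pairs. Replicate 1 gives the largest difference for most genes, and in replicate 3 the values of 7 genes lie below 0.

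Promoters of G2/M genes are known to carry CCAAT boxes, which bind NF-Y, and CHR elements (TTTGAA), which bind the complexes that repress or activate late cell cycle genes. Both were searched on either strand in the 250 bases before the start given by RefSeq for GRCm38.p6, in genes with 1 listed start. TTTGAA was in 9 of 26 G2/M promoters (34.6%), in 2 of 23 S phase promoters (8.70%) and in 10.5% of the 7626 promoters of genes tested. CCAAT was in 18 of 26 G2/M promoters (69.2%), in 13 of 23 S phase promoters (56.5%) and in 36.6% of promoters of genes tested. The shares are a property of the list and were not compared between the days. Promoters of Bub1b, which passed, and of Kif11 and Ccnb2 are shown as examples chosen after the values were seen. The last 2 hold both sequences and did not pass (differences of 0.42 and 0.29, adjusted p = 0.183 and 0.342). TTTGAA and CCAAT are in capitals on either strand (TTCAAA and ATTGG on the strand shown). Matches were taken at any place in the window, so a match need not be a working element. Bub1b lies at chr2:118597961-118598210, Kif11 at chr19:37376132-37376381 and Ccnb2 at chr9:70421555-70421804, the last on the minus strand.
Bub1b: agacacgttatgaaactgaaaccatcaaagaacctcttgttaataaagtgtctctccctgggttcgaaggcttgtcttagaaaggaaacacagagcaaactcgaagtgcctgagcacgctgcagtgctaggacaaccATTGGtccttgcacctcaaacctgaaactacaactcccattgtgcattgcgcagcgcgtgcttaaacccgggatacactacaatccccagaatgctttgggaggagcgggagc
Kif11: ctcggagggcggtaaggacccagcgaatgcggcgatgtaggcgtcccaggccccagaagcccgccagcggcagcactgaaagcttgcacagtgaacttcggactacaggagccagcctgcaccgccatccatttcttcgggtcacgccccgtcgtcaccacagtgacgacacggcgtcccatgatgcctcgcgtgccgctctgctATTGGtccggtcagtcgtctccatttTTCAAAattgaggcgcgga
Ccnb2: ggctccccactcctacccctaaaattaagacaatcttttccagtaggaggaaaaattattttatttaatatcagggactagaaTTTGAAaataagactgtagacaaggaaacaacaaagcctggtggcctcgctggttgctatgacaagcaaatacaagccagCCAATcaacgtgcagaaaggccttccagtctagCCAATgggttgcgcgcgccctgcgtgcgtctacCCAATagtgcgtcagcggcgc

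The same search was made in the genes that passed, for 56 promoters of genes that rose and 26 of genes that fell. TTTGAA was in 10.7% and 11.5% of them, CCAAT in 41.1% and 34.6%. CTTTGA, the core bound by LEF and TCF factors, which overlaps TTTGAA where a further A follows, was in 12.5% and 11.5%, against 10.8% of promoters of genes tested. TGGGAA, the core bound by RBPJ, the DNA-binding partner of Notch, was in 26.8% and 11.5%, against 20.3%. CAGGTG, an E-box of Zeb and Snail factors, was in 19.6% and 11.5%, against 15.1%, and GTATCA, a core of factors of the Six2 family, was in 1.79% and 7.69%, against 2.68%. TCAGGTTTC (MEF3) and TGACGTCA (CRE) were in none of these promoters, against 0.302% and 2.81%. The shares rest on 0 to 23 promoters a set and were not tested. For the Notch target Hey2 (chr10:30842784-30843033, minus strand), TGGGAA and CCAAT are in capitals. For Lhx1 (chr11:84525535-84525784, minus strand), the gene of the smallest p, and Six2 (chr17:85688255-85688504, minus strand), the factor of the progenitor state, CCAAT is in capitals, since TTTGAA was not in these windows.
Hey2: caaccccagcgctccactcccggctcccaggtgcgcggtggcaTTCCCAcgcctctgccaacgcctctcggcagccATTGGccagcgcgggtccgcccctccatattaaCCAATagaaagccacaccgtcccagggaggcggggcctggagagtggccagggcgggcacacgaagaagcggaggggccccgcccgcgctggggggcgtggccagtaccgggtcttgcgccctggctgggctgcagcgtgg
Lhx1: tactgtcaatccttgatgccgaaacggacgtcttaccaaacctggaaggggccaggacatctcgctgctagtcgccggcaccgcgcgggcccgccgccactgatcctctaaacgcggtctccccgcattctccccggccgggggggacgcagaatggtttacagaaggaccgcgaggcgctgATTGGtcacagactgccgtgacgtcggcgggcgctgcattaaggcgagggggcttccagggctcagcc
Six2: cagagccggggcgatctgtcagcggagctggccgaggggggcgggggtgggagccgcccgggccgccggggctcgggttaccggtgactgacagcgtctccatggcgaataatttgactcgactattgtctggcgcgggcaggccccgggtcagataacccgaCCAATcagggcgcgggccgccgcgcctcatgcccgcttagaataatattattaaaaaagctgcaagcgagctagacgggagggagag

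The step was set beside those before and after it, with which it shares the pools of P2 and of P3. P2 differed from P1 in 103 genes (0.867% of those tested), P3 from P2 in 146 and P4 from P3 in 398 (3.35%). The change of a gene during the P3 minus P2 step could be compared directly with its change during the P2 minus P1 step, and 0 genes differed (0%, limma), with 569 at an unadjusted p under 0.05 and a smallest adjusted p of 0.2, that of Prrx1. Crym had a difference of -1.13 for P3 minus P2 and -0.01 for P2 minus P1, Six2 -1.0 and -0.16, Meox1 -1.44 and 0.21, and the tests of these differences gave adjusted p-values of 0.649, 0.861 and 0.461. Bmp2 had 1.25 for P3 minus P2 and 1.43 for P2 minus P1, Lhx1 1.66 and 1.04, and Pax8 0.60 and 0.73 (adjusted p = 1 for each).

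The P4 minus P3 step differed from the P3 minus P2 step in 51 genes (0.429%), 27 with a more positive and 24 with a more negative change at the later step. Lhx1 changed by 0.39 for P4 minus P3 and by 1.66 for P3 minus P2 (difference of -1.27 ± 0.24, adjusted p = 0.0357), and Bmp2 by -0.66 and 1.25 (-1.91 ± 0.36, adjusted p = 0.0331). Dkk2 changed by -0.31 and 0.97 (-1.27 ± 0.20, adjusted p = 0.00958), and Bub1b by -0.37 and 0.65 (-1.02 ± 0.21, adjusted p = 0.0487). None of these 4 genes rose by more than 0.39 after P3. Crym changed by -2.63 for P4 minus P3 and by -1.13 for P3 minus P2 (-1.50 ± 0.28, adjusted p = 0.0322), whereas for Six2, with -1.29 and -1.0, and Meox1, with -1.78 and -1.44, the steps were not shown to differ (adjusted p = 0.755 and 0.804). Among genes with a more positive change at the later step, Tfap2b, a transcription factor of the distal nephron, had 6.25, 5.95 and 5.99 in P3 pools, against 6.37, 5.81 and 5.71 in P2 pools, and its steps were 2.34 for P4 minus P3 and 0.09 for P3 minus P2 (2.25 ± 0.28, adjusted p = 0.00377). The differences of Tfap2b and Dkk2 passed with any 1 array of P4, P3 or P2 left out. Those of Bmp2 and Bub1b were lost without any 1 of these arrays except P4 replicate 1, that of Lhx1 without any except P3 replicate 1 and P2 replicate 2, and that of Crym without any except P4 replicate 1, P3 replicate 3 and P2 replicate 2 (adjusted p up to 0.11, 0.166, 0.138 and 0.143).

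**Figure D5:**
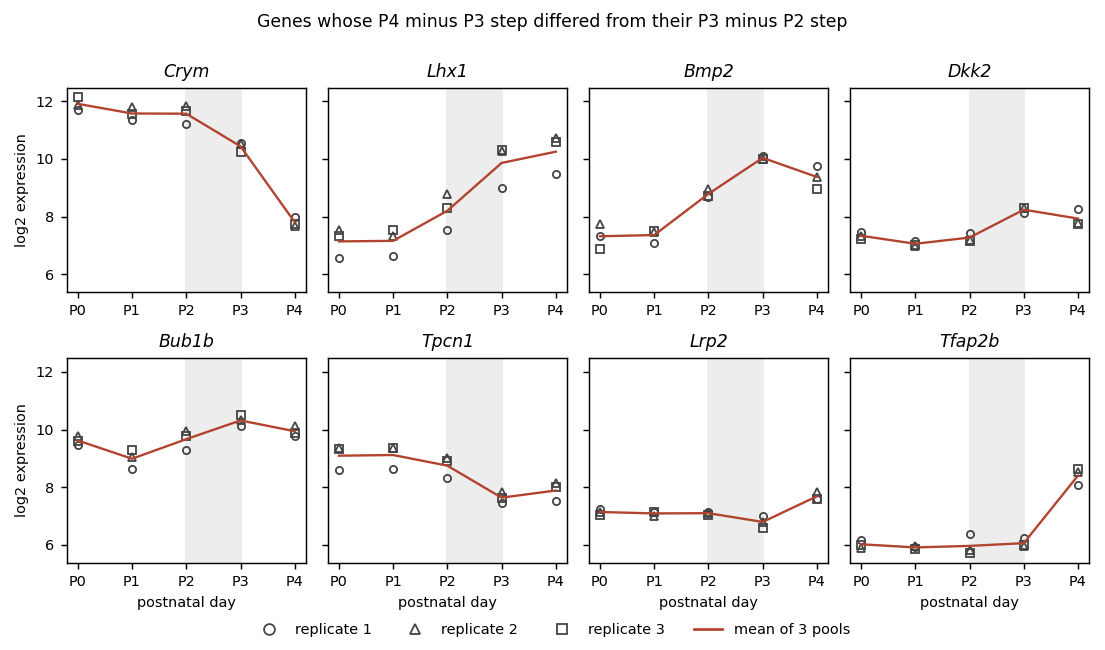
Log2 expression (vertical axis) over postnatal days P0 to P4 (horizontal axis) for 8 genes whose P4 minus P3 step differed from their P3 minus P2 step, with a symbol for each pool, a red line through the means of 3 pools and grey shading over the P2 to P3 interval. Bmp2, Dkk2 and Bub1b are highest at P3, Lhx1 gains less after P3, Crym loses most after P3, and Tfap2b is at its early level until P3.

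The P3 minus P2 difference itself was compared between the first array set and the later one. In that test 0 genes differed (0%, limma), with 418 at an unadjusted p under 0.05 and a smallest adjusted p of 0.204. Cited1 had that smallest adjusted p. Its paired differences were -0.53, -2.24 and -2.71 in the pairs of replicates 1, 2 and 3, and its change was more positive by 1.95 ± 0.26 (SE) in the first set. Paired differences of Crym, Six2 and Meox1 were also smallest in the first pair. They were -0.66, -1.31 and -1.42 for Crym, -0.51, -1.16 and -1.34 for Six2 and -0.67, -1.67 and -1.99 for Meox1 in the pairs of replicates 1, 2 and 3, and the adjusted p of the difference between sets was 0.997 for each. With P3 replicate 2 left out, so that P3 replicate 3 alone stood for the later set at P3, 120 genes differed between the sets.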

How the data were processed

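Transcripts of sorted cells were measured on Affymetrix whole-transcript mouse arrays after amplification with the WT-Ovation Pico kit. The authors deposited log2 values of 35557 probe sets in 15 samples. Per the labels the tool was Affymetrix Expression Console, with its version, summarization and background correction not given in the sources used here. Folds of dim genes can be understated where background remains. The number of arrays, 3 a day, limits the precision.

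Groups were taken from the day in the titles, where a title without a number was taken as replicate 1. Of the probe sets, 21789 had 1 gene symbol, 1621 several and 12147 none, and the last 2 kinds were not used. For 999 of 19938 genes with several probe sets, that of the highest mean was used. Tests used limma 3.58.1 under R 4.3.3 (lmFit and eBayes, two-sided) on all 15 arrays with day means and the array set as a block, 9 residual degrees of freedom, and Benjamini-Hochberg adjustment over 11885 genes at 0.05. The script was tested on simulated data. Deviations of same-numbered pools of P3 and P2 from their day means correlated at 0.637, 0.437 and 0.249, and those of P3 replicate 2 with P2 replicate 3 and of P3 replicate 3 with P2 replicate 2 at 0.325 and 0.209. The test blocks the array set only, and pairing by number, the replicate block, was an alternative.

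The members, the 37 gene lists and the tests were chosen with earlier results of these data known. Genes were named by rule (9 markers, the 12 largest passing changes each way, up to 3 members a list with the smallest p, and the 3 largest step differences each way). Other members and the promoters were named after their values were seen. Promoter sequences are those of RefSeq. Alternatives were other blocks, normalizations, filters, probe set rules, moderation, array weights and leaving out single arrays. Arrays of P3 and P2 were left out in turn, those of P1 and P4 for step differences only, and those of P0 never.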

Additional observations from a re-analysis of the deposited data

Results flagged for a closer look

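Of the 131 genes chosen by rule, 14 had a P4 minus P3 step that differed from their P3 minus P2 step by limma's test of the difference. Of all 11885 genes tested, 51 did (0.429%). Frzb, Peg10, Tfap2b, Tspan8 and ccdc198 were chosen because they passed this test, and Bmp2 for this and other reasons. The count is therefore not a result about the chosen genes. Values are log2 differences of the steps, later minus earlier. The change was more negative at the later step for Bmp2 (-1.91), Bub1b (-1.02), Crym (-1.50), Dkk2 (-1.27), Igfbp4 (-1.01), Lhx1 (-1.27), Frzb (-2.28), a secreted Wnt antagonist, and the imprinted gene Peg10 (-1.92). It was more positive for Igfbp6 (1.00), Lrp2 (1.19), Tpcn1 (1.36), Tfap2b (2.25), Tspan8 (2.28), a tetraspanin, and ccdc198 (2.74).

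Igfbp4 and Igfbp6, which bind insulin-like growth factors, turned in opposite directions. Igfbp4 changed by -0.40 for P4 minus P3 and 0.60 for P3 minus P2. Frzb changed by -1.47 for P4 minus P3 and 0.81 for P3 minus P2, and Peg10 by -1.34 and 0.58, but neither passed in P3 versus P2. Tspan8 and ccdc198 changed by 2.25 and 2.75 for P4 minus P3, against -0.03 and 0.01 for P3 minus P2.

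The difference of Tfap2b passed under all 19 alternatives (adjusted p up to 0.0234). That of Dkk2 was lost under 1, those of Tpcn1, Lrp2 and ccdc198 under 2 or 3, and those of the other genes under 8 to 13, mostly when a single array was left out. P4 cells are labelled renal vesicle and P3 cells cap mesenchyme, so the day and the labelled population cannot be told apart at the later step.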

How the results depend on the processing

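P3 versus P2 gave 146 genes (94 higher, 52 lower). Without the array set block it gave 17 (9 higher, 8 lower), all of them among the 146. With only the 6 arrays of P3 and P2, which leave 3 residual degrees of freedom, it gave 0 (limma, 950 at an unadjusted p under 0.05), so 0 higher and 0 lower. With only replicates 2 and 3 it gave 83 (45 higher), and with array weights 750 (512 higher, 238 lower). The weights ran from 0.171 for P3 replicate 3 to 5.13 for P0 replicate 1. With the replicate block, which pairs pools by number, it gave 144, of which 135 were among the 146. The 146 genes kept their direction with array weights. With replicates 2 and 3 alone it could not change, since for each gene all 3 pairs of pools moved the same way. With the other blocks and with the 6 arrays the differences are the same by design, so their direction could not change. Leaving out 1 array of P3 or P2 gave 57 (without P2 replicate 3) to 187 genes (without P3 replicate 1), 38 to 108 higher and 19 to 79 lower. Without P2 replicates 1 and 2 in turn it gave 83 and 81. Quantile normalization, median centring, no filter, a filter at log2 8, the mean of probe sets and moderated variances with a trend gave 123 to 181. Higher genes were 64.4% of the calls, against 52.9% without the block, 54.2% with replicates 2 and 3 and 62.4% and 62.5% under the other scalings. The share was 67.5% without a filter and 68.3% with array weights. When 1 array was left out it ran from 57.8% (without P3 replicate 1) to 74.1% (without P2 replicate 2).

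The step difference of P3 minus P2 against P2 minus P1 gave 0 genes, 1 after quantile normalization, 135 with array weights and 0 to 1 when 1 array was left out. That of P4 minus P3 against P3 minus P2 gave 51 genes, 61 with the replicate block, 2 without the array set block, 7 with replicates 2 and 3, 77 after quantile normalization, 82 after median centring, 26 with the filter at log2 8, 204 with array weights and 21 to 74 when 1 array was left out, P4 arrays included, which were added after seeing the data. Its share of more positive changes was 52.9%, against 46.3% after median centring and 34.8% with array weights. The difference between array sets gave 0 genes, 1 with array weights and 0 to 120 when 1 array was left out, the highest without P3 replicate 2. Leaving out the first P3 or P2 replicate allows no such test, and step differences cannot be fitted with 6 arrays. The causes were not tested. No named gene turned its direction after passing. Crym, Meox1, Il33, Tsga13, Papss2, Robo2, Dkk2 and Slit2 passed in all settings but the 6 arrays alone.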
